A study of Mus musculus with 9 samples.

Results

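The genes described here are 45 genes by which liver cells are known. They comprise 10 plasma proteins, 6 apolipoproteins, 6 clotting genes, 5 enzymes of the urea cycle, 6 enzymes of gluconeogenesis and amino acid breakdown, 9 transcription factors and 3 genes of fetal growth. They were chosen by name. The symbol column of the deposited tables held 44 of them. Trf, the iron carrier transferrin, was found by its RefSeq accession in entries that it shares with the overlapping gene Srprb, so its counts may hold reads of both genes. For each gene the transcript with the highest mean count over the 9 libraries was used. The tables list 28932 genes with an ID, and 18257 of these had counts in 1 or more libraries.

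RNA sequencing of total RNA was performed on Hepa 1 WT cells, a mouse hepatoma line whose cell line label reads HC1C. The first group was treated with 10 nM FICZ, a photoproduct of tryptophan that binds the aryl hydrocarbon receptor (AhR). The second was treated with 50 uM tryptamine, an amine made from tryptophan that the title of the study calls a proligand of the AhR acting through monoamine oxidases. The third was a control, labelled as untreated although the protocol names a vehicle. Treatment lasted 6 h and each group has 3 libraries, with no further allele or agent in the labels. All libraries come from 1 cell line in culture, and the labels do not say whether those of a group are separate cultures, so p-values measure the spread between libraries, which may be technical.

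Hepatocytes make most of the proteins of blood plasma and run the urea cycle and gluconeogenesis. Their gene programme is held by a set of transcription factors that bind one another's genes and the promoters of the secreted proteins, among them HNF4A, the FOXA proteins, C/EBP alpha and ONECUT1. Alpha-fetoprotein, glypican 3, Igf2 and H19 belong to the fetal liver, are low in the adult organ and often return in liver tumours. Hepatoma lines are known to keep this programme only in part.

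Total counts ranged from 11594798 in control replicate 3 to 16715834 in FICZ replicate 2. Control replicate 3 stood apart: its log2 CPM (counts per 1000000 of the library) correlated at 0.953 to 0.958 with the other 8 libraries, which correlated at 0.986 to 0.991 among themselves. Short transcripts ran high in it and long ones low. Its median log2 difference from the other 8 was 0.67 for 1137 genes with transcripts no longer than 1000 nt, -0.84 for 1332 genes longer than 6000 nt, and 0.03 between 2000 and 4000 nt. Results are therefore also given without this library. Cyp1a1, the usual readout of the AhR, spanned 951.1 to 1035 CPM in FICZ libraries, 674.3 to 753.8 CPM in tryptamine libraries and 55.37 to 63.85 CPM in control libraries.

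The hepatoma line kept 15 of the 45 liver genes and lacked most of the others. A gene is called kept where its control mean was at least 1 CPM, which held for 33.3% of the liver genes and for 40.6% of the 28932 genes with an ID. The 15 kept genes are Alb, Afp, Trf, Rbp4, Cp, Apoa2, Apoe, Ass1, Asl, Pck2, Fah, Foxa1, Foxa2, Nr1h4 and Gpc3. Of these, 5 averaged at least 100 CPM in control cells, 6 lay between 10 and 100 CPM and 4 between 1 and 10 CPM. Another 5 genes left traces, with more than 3 counts in at least 1 library and a control mean under 1 CPM. The remaining 25 had at most 3 counts in each library, and 19 of them had none in any of the 9. A count of 0 in all 9 libraries allows up to 0.0231 CPM (3 counts over the summed libraries, counting error only).

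**Figure D1:**
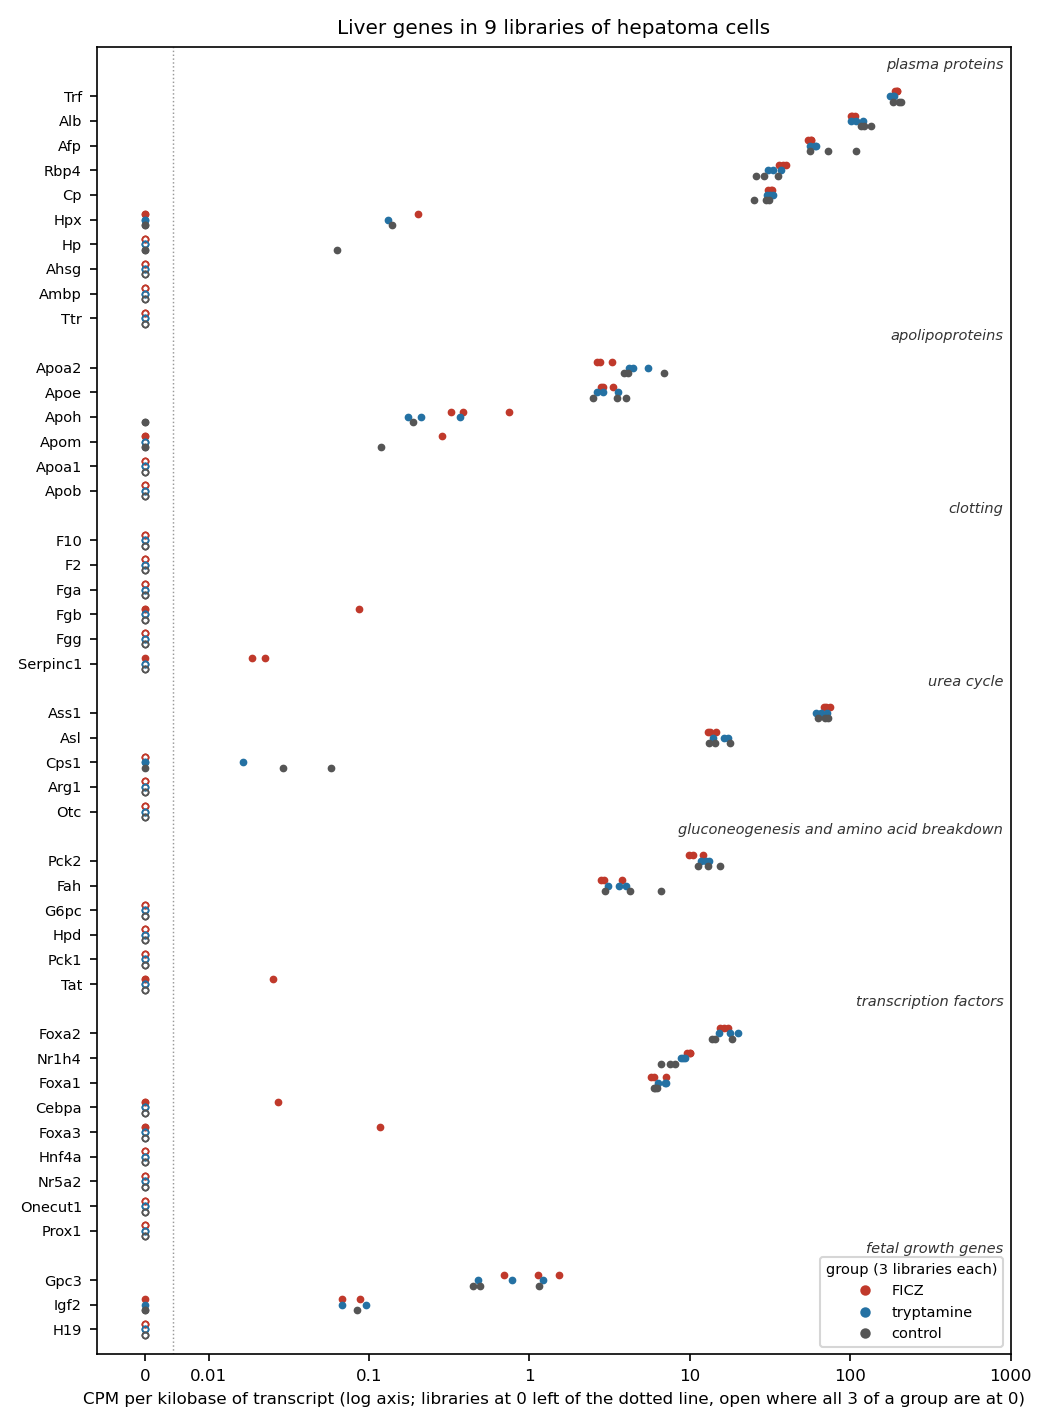
Levels of the 45 liver genes in CPM per kilobase of transcript, on a log axis, with 1 point per library, in order of the control level within each role. Libraries at 0 are drawn left of the dotted line, with an open symbol where all 3 libraries of a group are at 0; Trf, Alb, Afp and Ass1 lead, and 19 genes have no count in any library.

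Among the plasma proteins, 5 of 10 were kept, and 4 of these averaged over 100 CPM. Levels of different genes are compared per kilobase of transcript. Trf (gene ID 22041) had the highest level of the 45, at 197.8 ± 12.07 CPM per kb in control (SD, n = 3), which lies above 97.4% of the 12373 genes tested. Alb (gene ID 11657), serum albumin, the most abundant plasma protein, had 124.2 ± 9.421 CPM per kb (SD, n = 3). Afp (gene ID 11576), its fetal relative, had 79.29 ± 27.22 CPM per kb (SD, n = 3), so its control libraries differed more than those of Alb. In each control library Trf was highest per kilobase, then Alb, then Afp.

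By library, Alb had 208.7, 219.8 and 206.1 CPM with FICZ, 206.8, 220.5 and 243.9 CPM with tryptamine, and 248.8, 237.4 and 274.9 CPM in control. The FICZ libraries all lie below the control libraries, and the tryptamine libraries overlap with both. Afp had 118.3, 118.4 and 114.1 CPM with FICZ, 116.4, 127.1 and 125.8 CPM with tryptamine, and 150.9, 117.3 and 228.0 CPM in control. Control replicate 3 is by far the highest Afp library. Trf had 443.3, 454.0 and 453.6 CPM with FICZ, 433.6, 434.3 and 410.4 CPM with tryptamine, and 472.7, 429.2 and 481.8 CPM in control.

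Rbp4 (gene ID 19662), which carries retinol in plasma, had 44.47, 49.78 and 47.30 CPM with FICZ, 38.09, 45.96 and 40.98 CPM with tryptamine, and 32.26, 35.84 and 44.02 CPM in control. The FICZ libraries are all above the control libraries, narrowly so for control replicate 3, and the tryptamine libraries overlap with both groups. Cp (gene ID 12870), ceruloplasmin, the copper-carrying ferroxidase of plasma, had 124.2, 117.0 and 123.2 CPM with FICZ, 121.0, 116.4 and 125.7 CPM with tryptamine, and 114.5, 119.1 and 96.05 CPM in control. Per kilobase the 2 genes had similar levels in control, at 30.07 ± 4.847 CPM per kb for Rbp4 and 28.71 ± 3.191 CPM per kb for Cp (SD, n = 3). The other plasma proteins were almost silent. Ttr (transthyretin, which carries thyroid hormone and binds the Rbp4 protein), Ahsg (fetuin A) and Ambp (the precursor of alpha-1-microglobulin) had no count in any library. Hp, haptoglobin, had 1 count in all, and Hpx, the haem carrier hemopexin, had 11 counts over the 9 libraries.

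Of the 6 apolipoproteins, Apoa2 and Apoe were kept, both at low levels. Apoa2 (gene ID 11807), a protein of high-density lipoprotein, had 1.707, 1.429 and 1.367 CPM with FICZ, 2.177, 2.317 and 2.840 CPM with tryptamine, and 2.029, 2.132 and 3.583 CPM in control. Its FICZ libraries lie below all others, on 20 to 24 counts each. Apoe (gene ID 11816), a ligand of lipoprotein receptors, had 3.486, 3.573 and 4.169 CPM with FICZ, 3.605, 4.480 and 3.291 CPM with tryptamine, and 4.397, 3.095 and 5.033 CPM in control, with all groups overlapping. Apoh, a phospholipid-binding plasma protein, came next, with 2, 2 and 4 counts with FICZ, 2, 1 and 1 with tryptamine, and 0, 1 and 0 in control. Apoa1 and Apob, the main proteins of high- and low-density lipoprotein, had no count in any library, and Apom had 4 in all.

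No clotting gene was kept. The fibrinogen chains Fga and Fgg, prothrombin (F2) and factor X (F10) had no count in any library. Fgb, the third fibrinogen chain, had 2 counts, both in FICZ replicate 3, and Serpinc1, antithrombin, had 1 count in each of FICZ replicates 1 and 2. None of the 6 had more than 3 counts in any library.

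The urea cycle was kept in its middle. Ass1 (gene ID 11898), argininosuccinate synthase, had 121.7, 115.5 and 112.6 CPM with FICZ, 107.7, 117.6 and 100.5 CPM with tryptamine, and 102.3, 113.7 and 118.7 CPM in control. Asl (gene ID 109900), argininosuccinate lyase, the enzyme that acts on the product of Ass1, had 23.69, 26.68 and 24.33 CPM with FICZ, 29.73, 25.49 and 31.69 CPM with tryptamine, and 26.11, 24.08 and 32.50 CPM in control. The groups overlap for both genes. The mitochondrial steps before them were missing: Cps1, carbamoyl phosphate synthetase, had 7 counts in all, of which 6 were in control replicates 1 and 2, and Otc, ornithine transcarbamylase, had none. Arg1, arginase, which closes the cycle, had none either.

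Of the enzymes of gluconeogenesis and amino acid breakdown, Pck2 and Fah were kept. Pck2 (gene ID 74551), the mitochondrial phosphoenolpyruvate carboxykinase, had 33.79, 41.15 and 35.82 CPM with FICZ, 44.89, 43.02 and 39.82 CPM with tryptamine, and 44.30, 38.25 and 52.72 CPM in control. Pck1, the cytosolic form through which the liver mainly makes glucose, had no count, and neither had G6pc, the catalytic subunit of glucose-6-phosphatase. Fah (gene ID 14085), fumarylacetoacetate hydrolase, the last enzyme of tyrosine breakdown, had 5.976, 4.645 and 4.443 CPM with FICZ, 4.898, 6.334 and 5.744 CPM with tryptamine, and 4.667, 6.672 and 10.49 CPM in control. The first enzymes of that path were at the floor, with 1 count in all for Tat, tyrosine aminotransferase, and none for Hpd, which follows it.

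Hnf4a (gene ID 15378), the nuclear receptor at the centre of hepatocyte identity, had 0 counts in each of the 3 FICZ, 3 tryptamine and 3 control libraries, in all 8 of its listed transcripts. Onecut1, Prox1 and Nr5a2 had none either, Cebpa had 1 count and Foxa3 had 4, all in FICZ replicate 2. The forkhead factors Foxa1 and Foxa2, which open liver enhancers during development, were kept, as was Nr1h4, the bile acid receptor FXR. Foxa2 (gene ID 15376) had 33.87, 35.73 and 31.71 CPM with FICZ, 36.80, 41.40 and 31.62 CPM with tryptamine, and 28.61, 29.92 and 38.13 CPM in control, and the groups overlap. Foxa1 (gene ID 15375) had 18.28, 19 and 22.49 CPM with FICZ, 20.27, 22.63 and 22.26 CPM with tryptamine, and 19.07, 20.02 and 19.45 CPM in control, where the tryptamine libraries lie just above the control libraries. Nr1h4 (gene ID 20186) had 22.06, 22.09 and 21.12 CPM with FICZ, 19.79, 19.16 and 20.46 CPM with tryptamine, and 17.72, 16.44 and 14.50 CPM in control. It is the 1 gene among the 15 whose 3 groups are fully separated, with FICZ highest and control lowest. The share of all genes tested with 3 separated groups was not determined, so this does not set Nr1h4 apart from them.

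Of the fetal growth genes, Gpc3 alone was kept. Gpc3 (gene ID 14734), glypican 3, a cell-surface proteoglycan used as a marker of hepatocellular carcinoma, had 2.561, 3.454 and 1.572 CPM with FICZ, 1.088, 1.777 and 2.775 CPM with tryptamine, and 1.015, 2.614 and 1.109 CPM in control, with wide overlap. Igf2, a fetal growth factor, had 5, 0 and 4 counts with FICZ, 4, 0 and 6 with tryptamine, and 0, 0 and 4 in control. H19, the imprinted RNA next to Igf2, had no count in any library.

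The promoters of Alb, Afp, Nr1h4 and Rbp4 are shown because Alb and Afp are the plasma protein genes with the highest levels after Trf, and Nr1h4 and Rbp4 have FICZ libraries above all control libraries. Each line gives the 250 bases before the RefSeq start in build GRCm38.p6, on the strand of the gene. They lie at chr5:90460620-90460869 (plus strand) for Alb, chr5:90490464-90490713 (plus) for Afp, chr10:89506659-89506908 (minus) for Nr1h4 and chr19:38124812-38125061 (minus) for the second of 2 starts of Rbp4. Capitals mark matches, on either strand, to GCGTG, the core bound by AhR with its partner ARNT; TGTTTAC, a forkhead motif; TTGCNNAA, a C/EBP motif; and TATAAA, the TATA box.
Alb: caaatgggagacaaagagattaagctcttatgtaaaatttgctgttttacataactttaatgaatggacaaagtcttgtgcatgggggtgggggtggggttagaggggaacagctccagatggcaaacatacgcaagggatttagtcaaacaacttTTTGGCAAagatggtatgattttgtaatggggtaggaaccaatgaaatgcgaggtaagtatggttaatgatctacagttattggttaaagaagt
Afp: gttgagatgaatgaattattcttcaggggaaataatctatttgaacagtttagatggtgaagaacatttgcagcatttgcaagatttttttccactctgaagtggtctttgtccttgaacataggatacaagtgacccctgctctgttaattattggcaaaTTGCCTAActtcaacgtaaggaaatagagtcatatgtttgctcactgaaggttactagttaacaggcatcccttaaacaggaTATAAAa
Nr1h4: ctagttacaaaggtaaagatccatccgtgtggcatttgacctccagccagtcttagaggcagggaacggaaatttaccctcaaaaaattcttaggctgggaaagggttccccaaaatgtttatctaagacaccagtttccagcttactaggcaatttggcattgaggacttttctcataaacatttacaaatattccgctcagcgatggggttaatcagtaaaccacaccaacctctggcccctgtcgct
Rbp4: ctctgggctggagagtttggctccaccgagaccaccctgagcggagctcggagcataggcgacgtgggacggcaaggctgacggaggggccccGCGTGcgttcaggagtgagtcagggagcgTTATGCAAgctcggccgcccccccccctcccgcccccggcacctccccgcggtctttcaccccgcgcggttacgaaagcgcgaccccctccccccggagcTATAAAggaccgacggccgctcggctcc

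Alb and Afp each hold 1 match to TTGCNNAA in this window and Afp also 1 TATAAA, while the second Rbp4 start holds 1 GCGTG, 1 TTGCNNAA match and 1 TATAAA. The first Rbp4 start, which is not printed, holds a match to TGTTTAC and none to GCGTG, TTGCNNAA or TATAAA. Which start the cells use was not tested. The Nr1h4 window holds no match to these 4 motifs. A window from 250 bases before to 50 after the start was available for 38 of the 45 genes (not for Ttr, Trf, Hp, Cps1, Asl, Arg1 and H19). In it, TTGCNNAA was present for 12 of 38 liver genes, against 12.2% of 27025 genes with a window. It was present for 5 of the 13 kept genes (Alb, Afp, Rbp4, Cp and Apoa2) and for 7 of the 25 others, so liver genes the line lacked carry it as well. TGTTTAC was present for 5 of 38, against 4.05% of all genes. These were 4 of the 13 kept genes (Rbp4, Apoa2, Apoe and Foxa1) and 1 of the 25 others. TATAAA was present for 12 of 38, against 15.7%, with 6 of the 13 kept genes and 6 of the 25 others. GCGTG was present for 11 of 38, against 35.2% of all genes. It was found for 6 of the 13 kept genes (Rbp4, Ass1, Pck2, Fah, Foxa2 and Gpc3) and 5 of the 25 others. Whether kept genes and the others differ in these motifs was not tested. A match is a description of the letters and shows no binding.

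A longer list of 128 other liver genes was also kept in part. Its fetal and tumour genes include some that are not particular to liver, such as Pkm2 and Gpc1. Kept were 13 of 57 secreted proteins, 5 of 32 enzymes and transporters, 14 of 20 transcription factors and 9 of 19 fetal and tumour genes. These shares were not tested against each other. Slc25a15, the ornithine carrier of the urea cycle, had 9.041 ± 0.6075 CPM per kb in control (SD, n = 3), and Nags, which makes the activator of Cps1, had no count. Pkm2, the widely expressed form of the glycolytic enzyme pyruvate kinase, had 1094 ± 81.26 CPM per kb in control (SD, n = 3), and Pklr, the form of adult liver, had 2 counts in all.

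**Figure D2:**
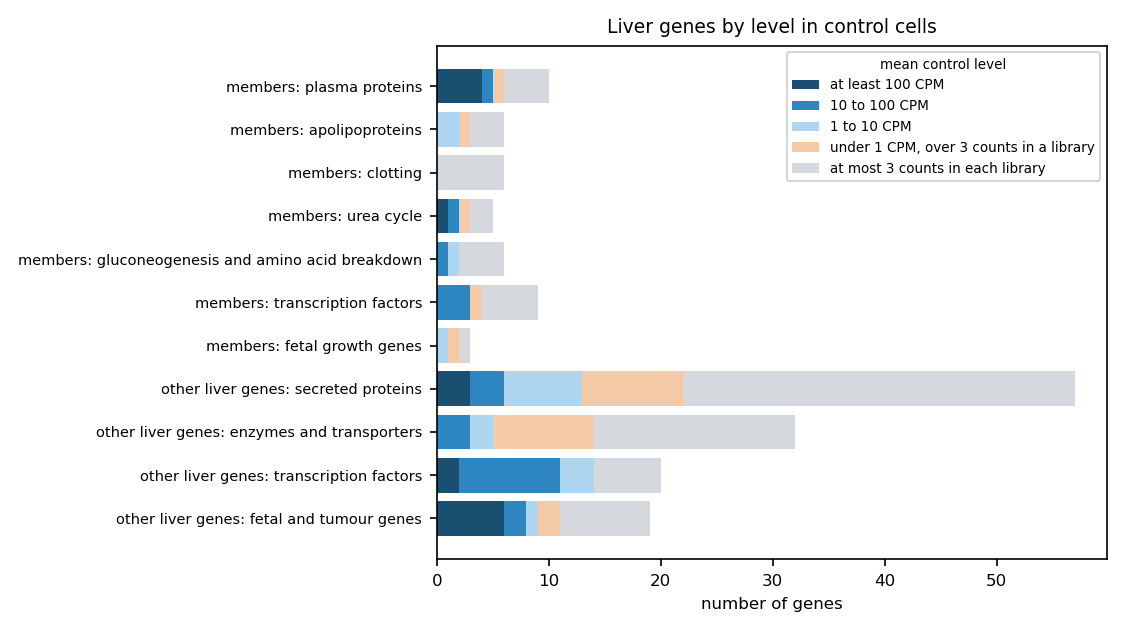
Number of liver genes in each range of control level, by role, for the 45 genes (upper 7 bars) and 128 other liver genes (lower 4 bars). Clotting genes fall wholly into the lowest class, while 14 of 20 transcription factors of the longer list average at least 1 CPM.

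Marker genes of other cell types were measured beside these. Of 10 fibroblast and stellate cell markers, 7 were kept and Lum and Lrat were at 0, with summed levels of 1630 to 1750 CPM with FICZ, 1630 to 1770 CPM with tryptamine and 1400 to 1700 CPM in control. Col1a1 made up most of this sum, with 154952 counts over the 9 libraries. Dcn came next with 44729, and Col1a2 had 11. Of 6 bile duct markers, 4 were kept and Epcam was at 0, with sums of 1050 to 1100 CPM with FICZ, 1020 to 1100 CPM with tryptamine and 1110 to 1550 CPM in control. Most of this sum was Krt7, with 120034 counts over the 9 libraries, and Spp1 came next with 15350. The endothelial markers summed to 3.92 to 8.79 CPM over all libraries, with 1 of 6 kept and Cdh5 and Tek at 0. The blood and macrophage markers summed to 51.2 to 77.6 CPM, with 2 of 6 kept and Hbb-b1 and Clec4f at 0. Csf1r held 6808 counts over the 9 libraries, most of this sum, and Cd68 came next with 473. Adgre1, also named for this list, was not found. The hepatocyte markers Alb, Afp and Hnf4a summed to 320 to 338 CPM with FICZ, 323 to 370 CPM with tryptamine and 355 to 503 CPM in control. The part of these levels in the results below was not tested.

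The comparison of FICZ with control asks whether 6 h of this AhR ligand moved the liver genes that the line kept. None of them passed: Nr1h4 and Rbp4 were higher and Alb, Afp and Apoa2 lower at an unadjusted p under 0.05, and none at an adjusted p under 0.05. With edgeR's quasi-likelihood test on all 9 libraries, 0 of the 15 genes had a Benjamini-Hochberg adjusted p under 0.05, where 0.113% of the 12373 genes tested did. DESeq2's Wald test called 0 of 15 as well, where it called 54 of the 12373 genes. At an unadjusted p under 0.05 there were 5 of 15, against 8.11% of all genes. The libraries of FICZ and control did not overlap for 4 of the 15, against 15.6% of all genes. The other 30 genes did not pass the filter on low counts.

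Nr1h4 had a log2 change of 0.42 ± 0.12 (SE, edgeR adjusted p = 0.574), with a 95% interval of 0.16 to 0.69. Alb had a log2 change of -0.26 ± 0.10 (SE, edgeR adjusted p = 0.601) and Afp one of -0.50 ± 0.19 (SE, edgeR adjusted p = 0.601). None of these passed, and Nr1h4 had the smallest p of the 15. Rbp4 had a log2 change of 0.34 ± 0.13 (SE, edgeR adjusted p = 0.601). Apoa2, on few counts, had a log2 change of -0.77 ± 0.31 (SE, edgeR adjusted p = 0.601), the largest in this fit. Of the 15 changes, 7 lay above 0 and 8 below, with a median of -0.0345 on the log2 scale, against -0.00566 over all genes tested.

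Without control replicate 3, Rbp4 rose with FICZ. It was 1.39-fold higher than in control, a log2 change of 0.47 ± 0.11 (SE, edgeR adjusted p = 0.0299). This was 1 of 15 genes, where 0.805% of the 12540 genes tested passed in either direction and 0.574% passed upward. The control group of that fit holds replicates 1 and 2 alone, and the library left out had the highest Rbp4 CPM of the controls. Leaving out control replicate 1 instead gave Rbp4 a log2 change of 0.241 (edgeR adjusted p = 0.389). Leaving out control replicate 2 gave 0.311 (edgeR adjusted p = 0.344). Rbp4 has a transcript of 1243 nt, and for transcripts between 1000 and 2000 nt the median log2 difference of control replicate 3 from the other 8 was 0.39. With a trend on transcript length taken out of each library and all 9 libraries in the fit, Rbp4 had a log2 change of 0.52 ± 0.10 (SE, edgeR adjusted p = 0.043), where 0.372% of genes passed upward. Nr1h4 had a log2 change of 0.35 ± 0.13 without that library (SE, edgeR adjusted p = 0.3), and Alb one of -0.20 ± 0.07 (SE, edgeR adjusted p = 0.283). Afp had a log2 change of -0.20 ± 0.09 without it (SE, edgeR adjusted p = 0.426), against -0.50 with it and -0.39 ± 0.14 with the length trend taken out (SE, edgeR adjusted p = 0.384). Apoa2 had one of -0.47 ± 0.37 without it (SE, edgeR adjusted p = 0.742), against -0.77 with it, and was then not the largest, as Gpc3 had 0.49.

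**Figure D3:**
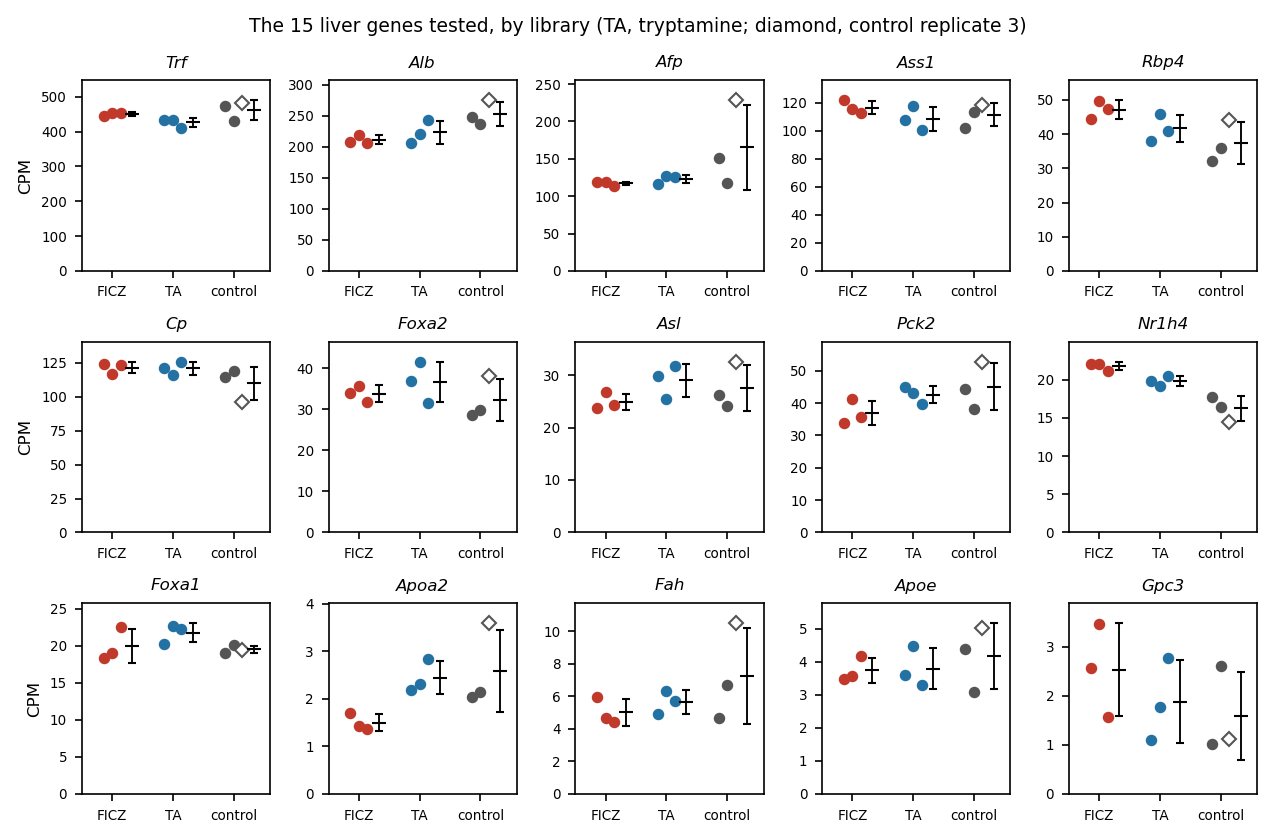
CPM of the 15 liver genes tested, with 1 point per library, the mean and SD of each group in black, and control replicate 3 as an open diamond. Alb, Apoa2, Rbp4 and Nr1h4 have FICZ libraries wholly apart from control, and control replicate 3 is the highest of the 9 libraries for 8 of the 15 genes (Alb, Afp, Trf, Apoa2, Apoe, Asl, Pck2 and Fah), as it is for 34.4% of all genes tested.

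The authors' deposited table, which tests single transcripts, gives other calls for 2 of these genes. In the authors' deposited table Afp has a log2 change of -0.58 (adjusted p = 1.73e-06) and Alb one of -0.32 (adjusted p = 0.0295) for FICZ over control. These are 2 of 15, where 5.61% of the transcripts with an adjusted p in the authors' deposited table lie under 0.05. Rbp4 has 0.27 there (adjusted p = 0.242 in the authors' deposited table). The libraries of Afp overlap between FICZ and control, and its change in the fit here moved with control replicate 3 as given above. The authors' deposited list of 81 genes higher with FICZ holds 0.28% of the 28932 genes with an ID, none of the 45, and 2 of the 128 other liver genes, F5 and Zbtb20. Both have long transcripts and are lowest in control replicate 3. Zbtb20 had 208.4, 188.4 and 240.4 CPM with FICZ and 202.2, 214.7 and 51.27 CPM in control, and its log2 change was 0.03 ± 0.09 without that library (SE, edgeR adjusted p = 0.952), against 0.44 with it. F5 had 11.17, 12.33 and 12.64 CPM with FICZ and 8.658, 9.63 and 4.436 CPM in control, and its log2 change was 0.40 ± 0.16 without that library (SE, edgeR adjusted p = 0.382), against 0.66 with it.

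The comparison of tryptamine with control asks the same of the proposed proligand, and shares the control libraries with the comparison above. No liver gene passed. With edgeR's quasi-likelihood test 0 of 15 had an adjusted p under 0.05, where 0.00808% of genes tested did. DESeq2's Wald test called 0 of 15, where it called 12 of the 12373 genes. At an unadjusted p under 0.05 there were 2 of 15, Nr1h4 and Afp, against 5.15% of all genes. The libraries did not overlap for 2 of 15, Nr1h4 and Foxa1, both higher with tryptamine, against 10.1% of all genes.

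For tryptamine over control, Nr1h4 had a log2 change of 0.29 ± 0.12 (SE, edgeR adjusted p = 0.74) and Afp one of -0.43 ± 0.19 (SE, edgeR adjusted p = 0.74). Alb had -0.18 ± 0.10, Trf -0.11 ± 0.08 and Cp 0.14 ± 0.10 (log2, SE), each with an edgeR adjusted p of 0.74. The 5 genes with the smallest p are thus all short of the threshold. The 15 changes had a median of -0.0387 on the log2 scale, against 0.00401 over all genes, with 7 above 0 and 8 below. Without control replicate 3, 0 of 15 passed with edgeR, where 0.199% of genes did, and the median was 0.0484 with 11 above 0 and 4 below. Afp then had a log2 change of -0.13 ± 0.09 (SE, edgeR adjusted p = 0.883) and Cp one of 0.05 ± 0.07 (SE, edgeR adjusted p = 0.974), both nearer to 0 than with that library. Rbp4 then had a log2 change of 0.29 ± 0.11 (SE, edgeR adjusted p = 0.655) and Foxa2 one of 0.32 ± 0.12 (SE, edgeR adjusted p = 0.655). The authors' deposited table called 1 of 15, where it called 1.45% of transcripts: Afp, with a log2 change of -0.51 (adjusted p = 0.00531), from libraries that include control replicate 3. The authors' deposited list of 22 genes higher with tryptamine holds 0.076% of the genes with an ID and none of the 45.

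FICZ and tryptamine were also set against each other. Their doses differ, at 10 nM and 50 uM, so this compares the 2 treatments as given and not the compounds at a matched dose. The fit of all 9 libraries was used here too, so the control libraries bear on the scaling, the estimate of spread and the filter. With only the 6 libraries of the pair, 0 of 15 passed with edgeR, where 17 of 12165 genes did. With edgeR's quasi-likelihood test on all 9 libraries 0 of 15 had an adjusted p under 0.05, as did 0% of the genes tested. DESeq2's Wald test called 0 of 15, where it called 10 of the 12373 genes. At an unadjusted p under 0.05 there was 1 of 15, Apoa2, against 1.73% of all genes. Apoa2 had a log2 change of -0.70 ± 0.31 for FICZ over tryptamine (SE, edgeR adjusted p = 1), with a 95% interval of -1.39 to -0.02. The libraries did not overlap for 3 of 15, against 11.3% of all genes: Apoa2 was lower with FICZ, and Nr1h4 and Trf were higher.

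For FICZ over tryptamine, Rbp4 had a log2 change of 0.18 ± 0.13 and Nr1h4 one of 0.14 ± 0.12, while Asl had -0.22 ± 0.14 and Pck2 -0.20 ± 0.14 (SE, each with an edgeR adjusted p of 1). The 95% interval was -0.12 to 0.48 for Rbp4 and -0.13 to 0.40 for Nr1h4, which does not show that the treatments act alike. The 15 changes had a median of -0.0745 on the log2 scale, against -0.00312 over all genes, with 6 above 0 and 9 below. Without control replicate 3, which then bears only on the scaling, the estimate of spread and the filter, 0 of 15 passed with edgeR, where 0.136% of genes did. The authors' deposited table called 0 of 15, where it called 0.0793% of transcripts.

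**Figure D4:**
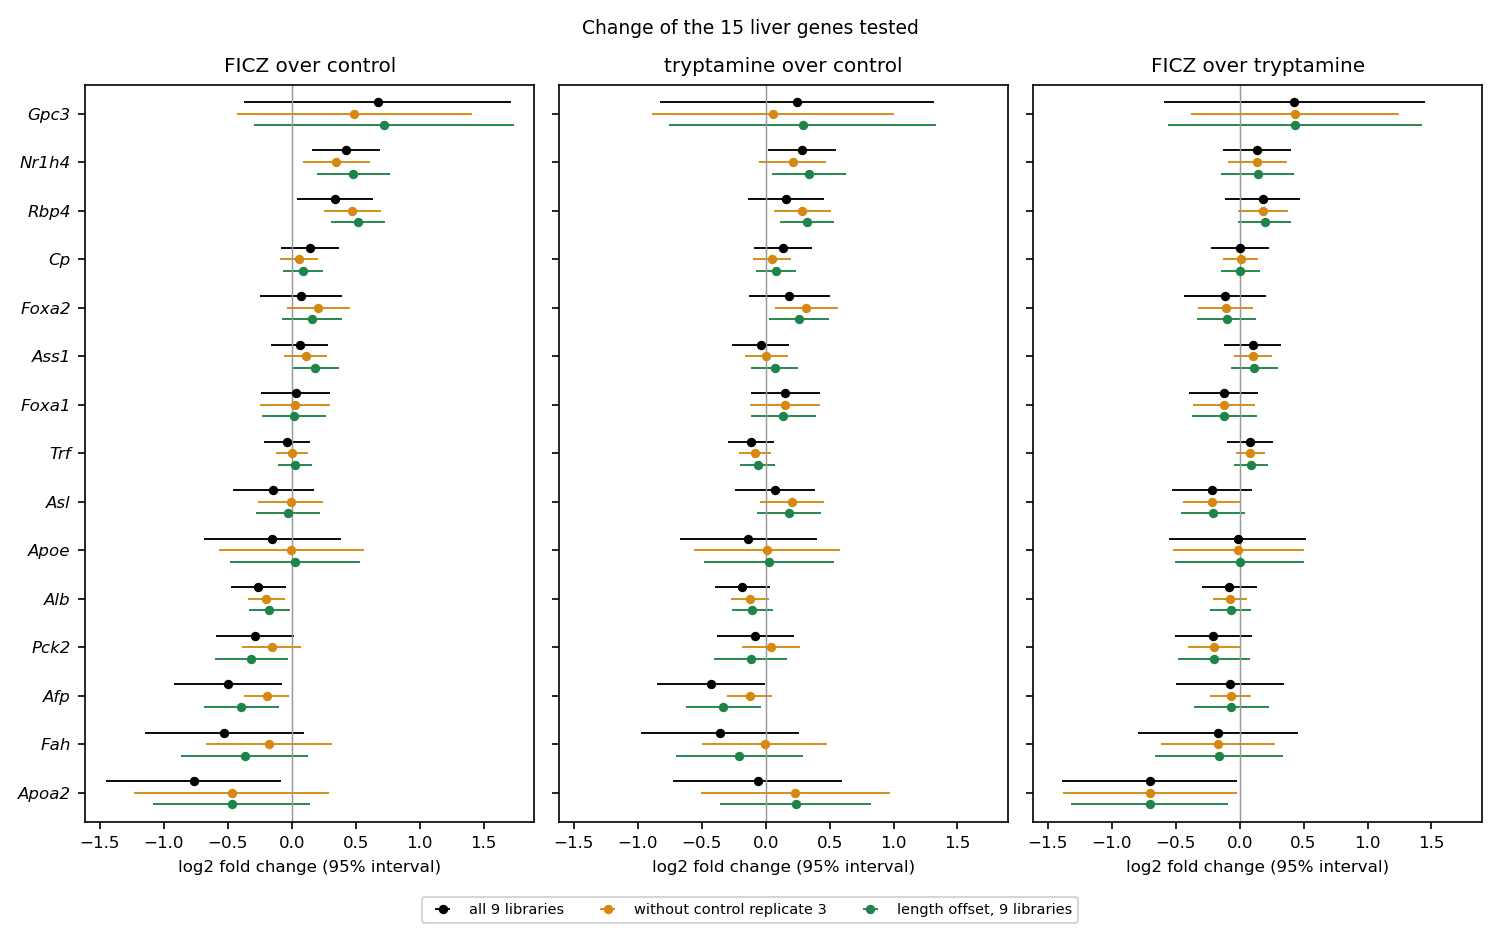
Log2 fold changes with 95% intervals of the 15 liver genes tested in the 3 comparisons, from the fit of all 9 libraries (black), the fit without control replicate 3 (orange) and the fit with a length offset (green). For FICZ over control, intervals of Nr1h4 and Rbp4 lie above 0 and those of Alb and Afp below 0 in all 3 fits, and Afp lies nearer to 0 without control replicate 3. The intervals are not adjusted for the number of genes tested, and the fits share most libraries. Among these genes only Rbp4 had an adjusted p under 0.05, in the orange and the green fit.

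Of the 128 other liver genes, 43 were tested. With edgeR's quasi-likelihood test on all 9 libraries none passed in any comparison, while an unadjusted p under 0.05 was found for 8 of 43 with FICZ over control (8.11% of all genes tested), 6 with tryptamine over control (5.15%) and 1 with FICZ over tryptamine (1.73%). DESeq2's Wald test called 1, Gpc1, for FICZ over control, where it called 54 of the 12373 genes. Without control replicate 3, 2 of 44 rose with FICZ, where 0.574% of all genes tested did. Gpc1, the glypican of many tissues, had 636.8, 606.7 and 561.0 CPM with FICZ and 445.4, 475.3 and 395.0 CPM in control, a log2 change of 0.39 ± 0.07 without that library (SE, edgeR adjusted p = 0.00282) and 0.46 ± 0.10 with it (edgeR adjusted p = 0.303). Cebpb, a C/EBP factor of the acute-phase response, had 18.92, 16.08 and 20.10 CPM with FICZ and 10.48, 11.35 and 34.29 CPM in control. Its log2 change was 0.75 ± 0.16 without control replicate 3 (SE, edgeR adjusted p = 0.0204) and -0.02 ± 0.38 with it (edgeR adjusted p = 0.99), so that library decides the value.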

How the data were processed

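RNA from 9 libraries, 3 each of FICZ, tryptamine and control, was sequenced. Each of the 3 pairs of groups has a deposited table of 189660 transcripts. Per the file headers these give whole-number read counts per library, a length-normalised signal that was not used for any value here, p-values of the authors' test (raw and adjusted) and the authors' log2 fold changes. DESeq, with no version, is the tool in the submitters' processing notes. Aligner, counting rule, strand, genome build and annotation were not given in the sources used here. The tables' coordinates are therefore not printed.

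The 45 genes, their roles, the list of other liver genes and the tests were chosen with earlier results of these data known. Each gene is represented by its transcript with the highest mean count. Of 5653 entries that name several loci, 928 were assigned through their RefSeq accession, and 26853 entries without a gene ID, which hold 3.56 to 4.23% of the counts, were left out. Replicate numbers come from the labels. Same-numbered libraries did not deviate together (correlations of -0.058 to 0.116), so the fit has no replicate term.

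All 9 libraries entered 1 fit in edgeR 4.0.16 (R 4.3.3) (TMM scaling, filterByExpr, a term for group alone), tested by quasi-likelihood with Benjamini-Hochberg adjustment over 12373 genes. "Rose" and "fell" mean an adjusted p under 0.05. CPM are counts per 1000000 of the library size after TMM scaling. SE is the log2 change over the square root of F. Counting floors (3 counts) cover counting error only. The test was checked on counts simulated with a spread near that of the fit without control replicate 3. The spread in the fit of all 9 libraries is larger, and the test was not checked at it. Alternatives were DESeq2 1.42.0 (its size factors, or its Wald test), other filters, only the 6 libraries of a pair, a replicate block, an offset for transcript length (lowess, span 0.3), sums over transcripts and each library left out. The DESeq2 Wald test without control replicate 3 was added after seeing the data.

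Values by library are given for Alb, Afp and Hnf4a, for the 3 genes of each role with the highest control level, for genes that passed with or without control replicate 3, and for the 5 with the smallest p in each comparison. Genes of the longer list are named where they pass in either fit, and Slc25a15, Nags, Pkm2, Pklr, F5 and Zbtb20 were chosen after their values were seen. Promoter sequences are from RefSeq (GRCm38.p6).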

Additional observations from a re-analysis of the deposited data

How the results depend on the processing

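The count of liver genes that passed for FICZ over control was 0 in the fit of all 9 libraries. It was 1 (Rbp4) with the length offset, 1 without control replicate 3 and with the length offset, and 1 with DESeq2's Wald test without control replicate 3, an alternative chosen after seeing the data. Leaving out 1 library at a time gave 0 to 1, the 1 being Rbp4 without control replicate 3. Rbp4 had adjusted p-values of 0.00624 to 0.834 over its 19 alternatives. The 5 genes with the smallest p in each comparison gave 15 values, with 19 alternatives each, 285 in all. Of these alternatives none changed direction, 4 crossed the threshold (all Rbp4, FICZ over control) and 281 did neither. Some changes of the other liver genes, which are not among these 15 values, did change direction. Apoa2 for tryptamine over control had a log2 change of -0.06 in the fit of all 9 libraries and 0.23 without control replicate 3. For tryptamine over control and FICZ over tryptamine the count of liver genes that passed was 0 under every alternative run. The number of kept genes was 15, and 12 with a control mean of at least 5 CPM.

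The replicate block gave 0 liver genes in each comparison, and 4 of all genes for FICZ over control, against 14 without the block. That count was 101 without control replicate 3 (72 higher, 29 lower), 51 with the length offset (46 higher, 5 lower), 26 with no filter, 4 with sums over transcripts, 2 with only the 6 libraries of the pair, 4 to 101 with each library left out in turn and 54 with DESeq2's Wald test (45 higher, 9 lower). For tryptamine over control it was 1 in the fit of all 9 libraries, 25 without control replicate 3 and 12 with DESeq2's Wald test. For FICZ over tryptamine it was 0 in the fit of all 9 libraries, 17 without control replicate 3, 17 with only the 6 libraries of the pair, 5 with the length offset and 10 with DESeq2's Wald test. Depth limits Apoa2, Gpc3, Fah and Apoe most, with 13 to 123 counts in a library.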
